A study of Mus musculus with 6 samples.

Results

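The enzymes described here carry pyruvate into the mitochondrion's tricarboxylic acid (TCA) cycle and turn that cycle. They are 9 nuclear genes chosen by name (Pdha1, Dlat, Cs, Idh3a, Ogdh, Dlst, Suclg1, Fh1 and Mdh2), and each has 1 row among the 55494 gene rows of the deposited count table. The study asked how 11,12-EET, an epoxyeicosatrienoic acid formed from arachidonic acid by cytochrome P450 epoxygenases, acts on muscle stem cells, which carry Pax7 and rebuild injured skeletal muscle. The 3 EET libraries came from primary muscle stem cells of wildtype mice cultured for 2 days with 11,12-EET, and the 3 control libraries from the same kind of cells cultured for 2 days without it. The sources used here give neither the age of the mice nor the EET dose nor what the controls received. The labels do not say that the libraries of a group came from separate mice or cultures, so the spread behind each p-value is that of these 6 libraries and may be technical.

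Pyruvate dehydrogenase is a large complex that makes acetyl-CoA from pyruvate. Citrate synthase joins acetyl-CoA to oxaloacetate, and the cycle then oxidises the carbon and hands electrons to the respiratory chain. Oxoglutarate dehydrogenase, in the middle of the cycle, is built like pyruvate dehydrogenase: each has a decarboxylase, a lipoate-bearing acyltransferase core and a shared dihydrolipoyl dehydrogenase. Quiescent muscle stem cells have few mitochondria, and their oxidative metabolism grows when they are activated.

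Library totals ran from 32154461 to 36386443 counts with EET and from 30371291 to 37243882 in controls. Each member had at least 2187 counts in every library, and all 9 passed the filter on low counts. Levels are given as CPM (counts scaled by library total and by a TMM factor), and a gene was called when the adjusted p of edgeR's quasi-likelihood test over all 16097 genes tested was under 0.05. Fold changes across the whole table followed mRNA length (Spearman rho −0.684 across 13809 protein-coding genes, which are not independent replicates). Those of the named genes of the pathway are therefore given as counted and again after removing, library by library, the trend on mRNA length and GC content. The deviation of a library from the 6-library mean changed by −0.269, −0.215 and −0.111 log2 units per doubling of length in EET libraries 1, 2 and 3, against 0.116, 0.236 and 0.243 in control libraries 1, 2 and 3. Muscle stem cell markers were abundant (summed level of 6 genes 2620 to 2700 CPM with EET and 2470 to 2640 CPM in controls), and their genes moved both ways: Pax7 was called lower (log2 fold change −0.45, adjusted p = 6.34e-05, edgeR), Myf5 (0.26, adjusted p = 0.0078) and Myod1 (0.25, adjusted p = 0.0047) were called higher, and the other 3 were not called. With the trend removed Pax7 (−0.05) and Myf5 (−0.03) were not called and Myod1 was called lower (−0.14); the Myf5 call as counted was also lost without control 3 or EET 2 (0.22 and 0.21). Markers of other cells were present too, none of them at 0. The summed level of 5 endothelial markers was 129 to 148 CPM with EET and 230 to 243 CPM in controls, with 4 of 5 called lower. The sum of 5 Schwann cell markers was 271 to 293 CPM with EET and 359 to 366 CPM in controls, with 4 lower and 1 higher. The sum of 5 macrophage markers was 351, 182 and 172 CPM in EET libraries 1, 2 and 3 and 280 to 312 CPM in controls (2 of 5 lower), so that EET 1 lay above and EET 2 and EET 3 below all controls. The sum of 5 fibro-adipogenic markers was 328 to 341 CPM with EET and 345 to 349 CPM in controls (1 of 5 lower). Of all genes tested, 23.3% were called lower and 24.6% higher. With the trend removed, 4 endothelial, 3 Schwann cell, 2 macrophage and 2 fibro-adipogenic markers were called lower and 0 higher. The shares of all genes were then 17.1% lower and 15.2% higher. Genes of the mitochondrial genome took 1.58 to 1.72% of counts with EET and 1.25 to 1.37% in controls. The part of these cells in the results was not tested. In bulk RNA, fewer cells of a type and less RNA per cell cannot be told apart.

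The 9 enzyme genes did not move as a block. Suclg1, Mdh2, Fh1 and Idh3a rose with EET, by 1.19-fold to 1.53-fold, Ogdh and Pdha1 fell, to 0.752 and 0.855 of their control levels, and Cs, Dlst and Dlat were not called. Called higher were 4 and called lower 2 of the 9 members, beside 24.6% and 23.3% of all genes tested (47.9% in either direction). The members' median log2 fold change was 0.03, beside 0.00501 over all genes tested. With the length and GC trend removed, 3 members were higher (Fh1, Dlat and Idh3a) and 3 lower (Pdha1, Ogdh and Cs), at a median of −0.04, where 15.2% of all genes were higher and 17.1% lower (32.3% in all) at a median of −0.0344. The genes called in the same direction both ways were Fh1, Idh3a, Ogdh and Pdha1. In 7 of 9 members the 3 EET libraries lay wholly above (4 genes) or wholly below (3 genes) the 3 controls, which 57.7% of all genes tested also did (29.6% above and 28.0% below).

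**Figure D1:**
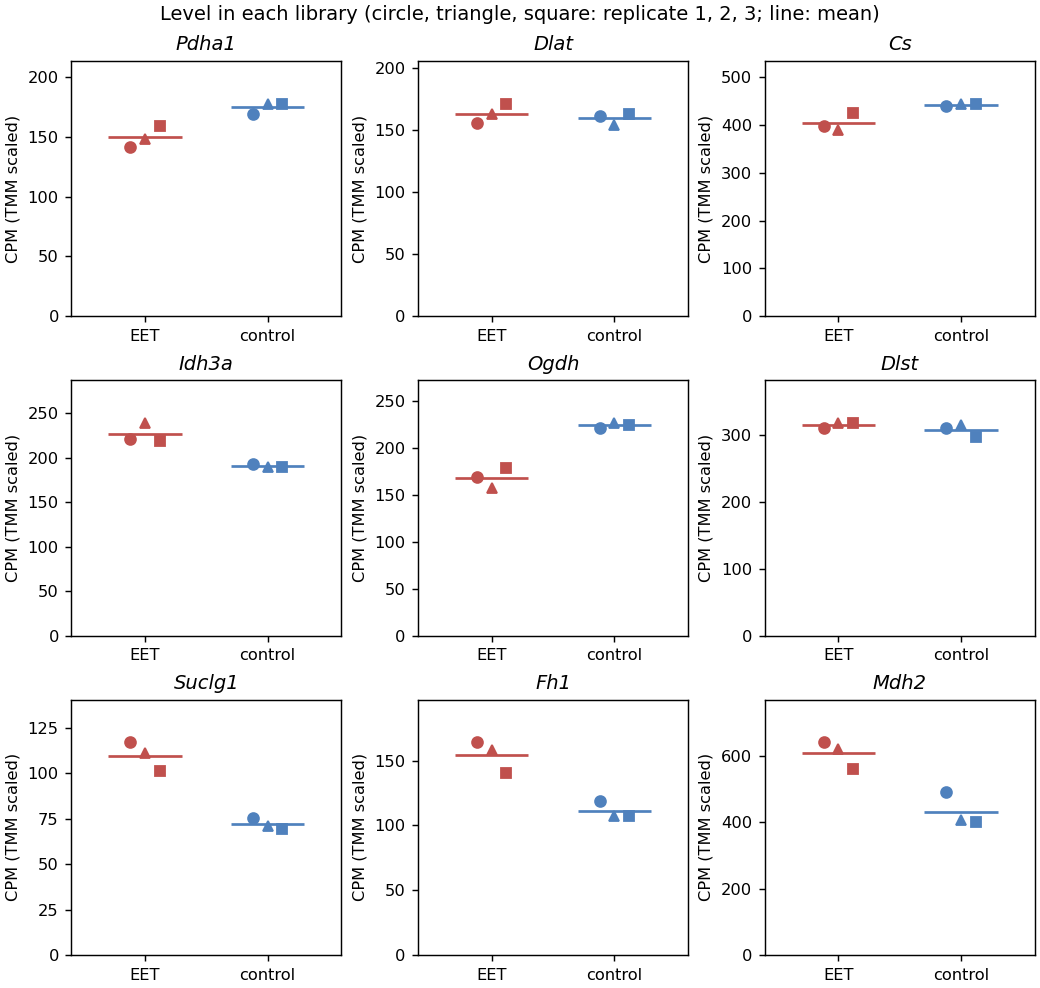
Level of each of the 9 enzyme genes (vertical axis, TMM-scaled CPM from 0) in the 3 EET and 3 control libraries; points are libraries and lines are group means. EET points lie above all control points for Idh3a, Suclg1, Fh1 and Mdh2 and below them for Pdha1, Cs and Ogdh, and the groups overlap for Dlat and Dlst.

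The start regions of members that rose and of members that fell are shown to let their promoters be compared. RefSeq's table for GRCm38.p6 holds windows from 250 bases before to 50 bases after the start for 8 of the 9 members, all except Idh3a. They are written 5′ to 3′ along the gene, with GC boxes (GGGCGG, bound by Sp factors) and CCAAT boxes (bound by NF-Y) in capitals, on either strand. Suclg1 (chr6:73248255-73248554, plus strand) and Fh1 (chr1:175625586-175625885, minus strand) rose as counted. With the trend removed Suclg1 was not called (log2 fold change 0.10, adjusted p = 0.112, edgeR). Ogdh (chr11:6291347-6291646, plus strand, the most upstream of 6 listed starts) and Pdha1 (chrX:160138381-160138680, minus strand) fell.
Suclg1: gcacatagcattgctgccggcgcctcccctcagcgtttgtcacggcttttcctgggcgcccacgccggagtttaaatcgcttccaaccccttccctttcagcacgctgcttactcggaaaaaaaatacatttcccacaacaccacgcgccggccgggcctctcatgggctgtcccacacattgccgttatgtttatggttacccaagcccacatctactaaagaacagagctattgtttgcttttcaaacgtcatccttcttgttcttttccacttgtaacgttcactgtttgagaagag
Fh1: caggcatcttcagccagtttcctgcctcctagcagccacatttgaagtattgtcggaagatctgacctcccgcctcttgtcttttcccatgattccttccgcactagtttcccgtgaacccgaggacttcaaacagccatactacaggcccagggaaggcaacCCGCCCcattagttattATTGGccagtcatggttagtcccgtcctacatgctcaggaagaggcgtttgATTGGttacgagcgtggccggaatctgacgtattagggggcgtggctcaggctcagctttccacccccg
Ogdh: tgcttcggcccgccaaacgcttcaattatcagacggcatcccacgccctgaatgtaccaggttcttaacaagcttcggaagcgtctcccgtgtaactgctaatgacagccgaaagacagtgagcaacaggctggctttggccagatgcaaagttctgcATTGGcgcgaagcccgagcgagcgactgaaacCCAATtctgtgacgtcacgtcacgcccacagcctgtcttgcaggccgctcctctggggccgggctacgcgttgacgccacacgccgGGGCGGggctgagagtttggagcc
Pdha1: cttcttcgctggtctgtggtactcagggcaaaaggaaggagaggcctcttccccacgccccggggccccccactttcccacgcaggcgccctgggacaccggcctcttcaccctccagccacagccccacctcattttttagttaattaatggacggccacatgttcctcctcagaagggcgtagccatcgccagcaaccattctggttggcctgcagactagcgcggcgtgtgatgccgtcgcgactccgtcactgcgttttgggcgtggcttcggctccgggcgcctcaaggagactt
Fh1 and Ogdh, which moved in opposite directions, each held both boxes. Suclg1 and Pdha1, which moved in opposite directions as counted, held neither. In the annotation GENCODE M21, Suclg1 starts further upstream, at chr6:73248382, and a window around that start was not searched. A GC box was in 6 of the 8 member windows (Cs, Ogdh, Dlst, Fh1, Mdh2 and Dlat), beside 35.9% of the 27025 gene windows in the table, and a CCAAT box in 3 (Cs, Ogdh and Fh1), beside 38%. The letters CCGGAAG, a core of ETS factors such as GABPA, were found once, in Dlst (9.14% of all windows). The letters AAGGTCA (estrogen-related receptors), TATAAA (the TATA box) and TNGCGTG (the aryl hydrocarbon receptor) were in none of the 8 windows, and in 4.65%, 14.2% and 5.16% of all windows; the palindromic motif of NRF1 was in none of the 8 and in 0.981% of all. Both strands were searched; the searched motifs did not share letters in these windows, other than neighbouring GC boxes in Dlst. The windows of the members were rich in CpG, with 14 (Fh1) to 28 (Dlst) each, beside a median of 7 over all windows.

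In the pyruvate dehydrogenase complex, the gene of the decarboxylase's alpha subunit fell and that of the core was not called. Pdha1 encodes the alpha subunit of the decarboxylase, the subunit whose phosphorylation switches the complex off, and spans chrX:160122209-160138413 (minus strand; GRCm38, GENCODE M21). It stood at 142, 148 and 159 CPM in EET libraries 1, 2 and 3, against 169, 178 and 178 CPM in control libraries 1, 2 and 3. Every EET library was below every control. The log2 fold change was −0.23 ± 0.07 (SE, adjusted p = 0.0117, edgeR), or −0.29 with the trend removed (adjusted p = 0.000142). As counted, the call was lost when control 2 (adjusted p = 0.0592), control 3 (0.0534), EET 1 (0.0565) or EET 2 (0.0524) was left out, with values of −0.22 to −0.19, and over all 19 other fits its adjusted p ran from 1.25e-05 to 0.0592. Exons of Map3k15, on the opposite strand, overlap those of Pdha1 over 603 bp. Map3k15 had 0.285 to 0.672 CPM with EET and 0.911 to 1.43 CPM in controls, far below the Pdha1 values. It was itself called lower (log2 fold change −1.31, adjusted p = 0.0189, edgeR). No source used here gives the strand setting of the counting, and the part of the overlap in the Pdha1 value was not tested.

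Dlat encodes the dihydrolipoyl acetyltransferase that forms the complex's core. It had 155, 163 and 171 CPM in EET libraries 1, 2 and 3 and 161, 154 and 163 CPM in control libraries 1, 2 and 3, so the groups overlapped. Its log2 fold change was 0.03, with a 95% interval of −0.11 to 0.17 and an adjusted p of 0.703 (edgeR). Its mRNA is long (4035 bp), and with the trend removed Dlat was called higher, at 0.21 ± 0.05 (adjusted p = 0.00161), although its mean level was 163 ± 7.54 CPM with EET and 159 ± 4.75 CPM in controls (SD, n = 3 each). After trend removal a value is read against mRNAs similar in length and GC content.

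The other subunit genes of this complex rose as counted. Pdhb, the beta subunit of the decarboxylase, averaged 111 ± 1.88 CPM with EET and 88.6 ± 9.02 CPM in controls (SD, n = 3 each; log2 fold change 0.33, adjusted p = 0.00254). Thus the genes of the decarboxylase's alpha and beta subunits moved in opposite directions as counted. With the trend removed Pdhb was called lower, at −0.16 (adjusted p = 0.0308). Pdhx, which anchors the shared dehydrogenase to the core, rose by 0.36 ± 0.09 (SE) on the log2 scale (adjusted p = 0.00343), or by 0.23 with the trend removed (adjusted p = 0.0222). Dld, that dehydrogenase itself, rose by 0.23 ± 0.07 (adjusted p = 0.0124), a call that was lost with the trend removed (0.05, adjusted p = 0.418), with library totals as the scaling (0.16, adjusted p = 0.0769), and without control 2 (0.20), control 3 (0.22) or EET 2 (0.18).

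Of the genes of the cycle's first steps, the isocitrate dehydrogenase subunit Idh3a rose. Cs encodes citrate synthase, whose activity is often used as a measure of mitochondrial content. It had 399, 390 and 425 CPM in EET libraries 1, 2 and 3, against 439, 444 and 445 CPM in control libraries 1, 2 and 3. Each EET library was below each control, by a margin smaller than the spread within the EET group, and the gene was not called (log2 fold change −0.13, 95% interval −0.26 to 0.01, adjusted p = 0.109, edgeR). Cs was called lower in 7 of 19 other fits, among them library totals as the scaling (−0.20, adjusted p = 0.0225), the fit without EET 3 (−0.16, adjusted p = 0.0367) and the fit with the trend removed (−0.16, adjusted p = 0.00693); over the 19 its adjusted p ran from 0.00213 to 0.323.

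Idh3a encodes the catalytic alpha subunit of the NAD-dependent isocitrate dehydrogenase. It stood at 221, 239 and 219 CPM in EET libraries 1, 2 and 3 and at 193, 189 and 189 CPM in control libraries 1, 2 and 3, without overlap. The log2 fold change was 0.25 ± 0.06 (SE, adjusted p = 0.00445, edgeR), or 0.14 with the trend removed (adjusted p = 0.0221). That last call was lost when the length of the longest transcript with a RefSeq accession was used (0.10, adjusted p = 0.111), and the adjusted p of all 19 other fits ran from 0.000149 to 0.111. The partner subunits Idh3b and Idh3g rose as counted, by 0.34 ± 0.07 and 0.46 ± 0.07, and had −0.12 (adjusted p = 0.0742) and −0.16 (called lower, adjusted p = 0.0158) with the trend removed.

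In oxoglutarate dehydrogenase, the decarboxylase gene Ogdh fell and the core gene Dlst was not called. Ogdh encodes the thiamine-dependent decarboxylase that turns oxoglutarate into succinyl groups, and spans chr11:6291633-6356642 (plus strand). It had 169, 158 and 179 CPM in EET libraries 1, 2 and 3, against 222, 227 and 225 CPM in control libraries 1, 2 and 3. The controls differed by less than any EET library differed from them. The log2 fold change of Ogdh was −0.41 ± 0.07 (SE, adjusted p = 0.000131, edgeR) and, after trend removal, −0.22 (adjusted p = 0.000792), and it was called lower in all 19 other fits. Its 4127 bp mRNA is the longest of the 9. Ogdhl, its paralogue, was near 3 CPM in both groups. It was not called as counted (log2 fold change 0.11, adjusted p = 0.719) or with the trend removed (0.23, adjusted p = 0.462).

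Dlst, the dihydrolipoyl succinyltransferase at the core of this complex, had 310, 318 and 318 CPM in EET libraries 1, 2 and 3 and 311, 315 and 297 CPM in control libraries 1, 2 and 3. The groups overlapped and the log2 fold change was 0.03, with a 95% interval of −0.10 to 0.17 (adjusted p = 0.697, edgeR). Under library totals and with the trend removed its sign turned (−0.04 in each), without a call in any fit. Mrps36, a small protein also known as an adaptor of this complex, rose by 0.87 ± 0.11 (adjusted p = 2.5e-05); with the trend removed it was at −0.13 and not called (adjusted p = 0.305).

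**Figure D2:**
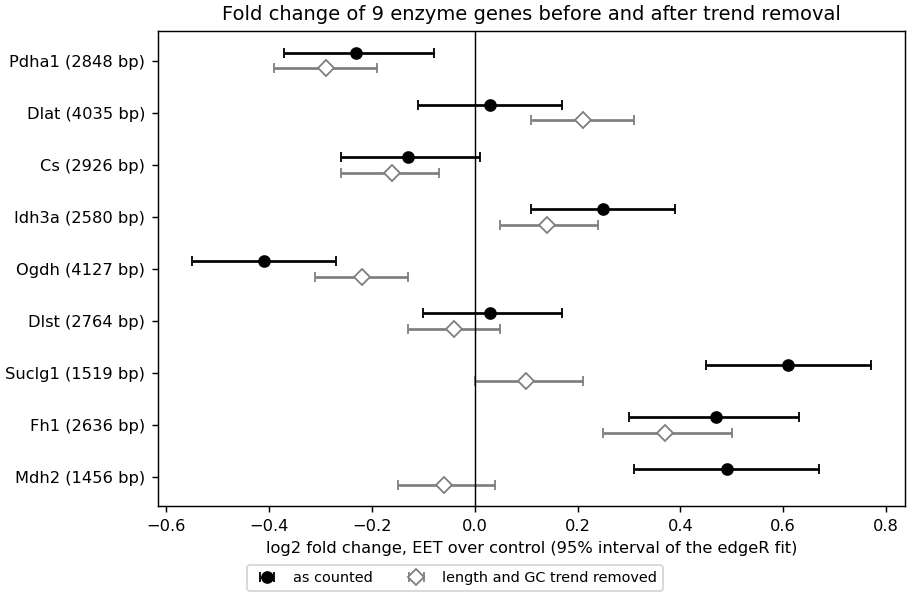
Log2 fold change of EET over control (horizontal axis) with its 95% interval for the 9 enzyme genes, ordered along the pathway, as counted (filled circles) and after trend removal (open diamonds); mRNA lengths are in brackets. Removing the trend moved Mdh2 to −0.06 and Suclg1 to 0.10, whereas Fh1 was at 0.37 and Ogdh at −0.22, their intervals clear of 0.

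The 3 members of the later steps rose as counted. Suclg1 encodes the alpha subunit common to the ATP-forming and GTP-forming succinyl-CoA ligases. It had 117, 111 and 101 CPM in EET libraries 1, 2 and 3, against 75.4, 71.2 and 69.5 CPM in control libraries 1, 2 and 3, the largest fold difference among the 9 members. The log2 fold change was 0.61 ± 0.07 (SE, adjusted p = 1.36e-05, edgeR). The fitted trend came to 0.50 for its short mRNA (1519 bp), and the remaining 0.10 was not called (adjusted p = 0.112; 9.85e-13 to 0.112 over all 19 other fits). Its beta partners differed as counted. Sucla2, of the ATP-forming enzyme, rose by 0.40 ± 0.07 (0.16 with the trend removed, adjusted p = 0.0194). Suclg2, of the GTP-forming enzyme, was not called at 0.04 (adjusted p = 0.667), nor at 0.08 with the trend removed (adjusted p = 0.321).

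Fh1 encodes fumarate hydratase, which makes malate from fumarate. It stood at 164, 158 and 140 CPM in EET libraries 1, 2 and 3 and at 119, 107 and 107 CPM in control libraries 1, 2 and 3. The lowest EET library was above the highest control. The log2 fold change was 0.47 ± 0.08 (SE, adjusted p = 0.000149, edgeR), and it was called higher with the trend removed too (0.37 ± 0.06, adjusted p = 7.04e-05). It was called higher in all 19 other fits, at 0.37 to 0.57. The fits with the trend removed all took 2636 bp, the longer of 2 protein-coding transcripts of Fh1 (the other has 542 bp). Its value at a shorter length was not tested.

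Mdh2 encodes the mitochondrial malate dehydrogenase, which closes the cycle by making oxaloacetate. It had 641, 622 and 561 CPM in EET libraries 1, 2 and 3, against 491, 406 and 400 CPM in control libraries 1, 2 and 3. Control 1 was the nearest to the EET libraries and EET 3 the nearest to the controls, as they also were for Suclg1, Fh1 and the length trend. The cause was not tested. The log2 fold change was 0.49 ± 0.08 (SE, adjusted p = 0.000212, edgeR). At 1456 bp Mdh2 has the shortest mRNA of the 9, the fitted trend came to 0.55, and with the trend removed the value was −0.06 (adjusted p = 0.379).

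Among the 9 members the fold change as counted ran with mRNA length: the genes with the shortest mRNAs, Mdh2 and Suclg1, rose, and the lowest value was that of the longest mRNA (Spearman rho −0.85 over 9 genes, as a description; −0.30 with the trend removed). By their longest transcripts, Fh1 (2636 bp), Idh3a (2580 bp), Dlst (2764 bp), Pdha1 (2848 bp) and Cs (2926 bp) are of nearly the same length. Their log2 fold changes as counted were nonetheless spread from −0.23 for Pdha1 to 0.47 for Fh1, and the fitted trend moved each of them by no more than 0.11. Ogdh and Dlat, the longest mRNAs at 4127 and 4035 bp, differed likewise, at −0.41 and 0.03 as counted and −0.22 and 0.21 with the trend removed.

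**Figure D3:**
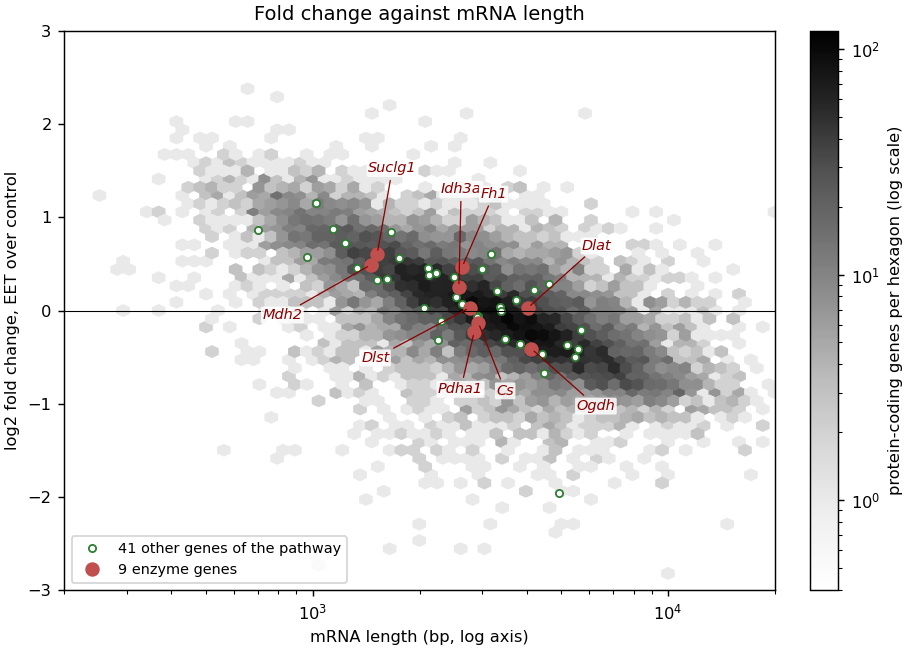
Log2 fold change of EET over control (vertical axis) against mRNA length (horizontal log axis) for protein-coding genes tested, as grey hexagons shaded by the number of genes, with 41 other genes of the pathway (open circles) and the 9 enzyme genes (filled circles, named); genes beyond the axes are not drawn. Suclg1 (0.61) and Mdh2 (0.49) lie in the band of short mRNAs, while Fh1 (0.47) and Pdha1 (−0.23) are apart at nearly the same length of the longest transcript.

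Ratios of counts within a library do not depend on the scaling between libraries, and 6 pairs of subunits or isoenzymes were compared. The ratio of Pdha1 to Dlat was 0.911, 0.908 and 0.931 in EET libraries 1, 2 and 3, against 1.05, 1.16 and 1.09 in control libraries 1, 2 and 3, a difference of −0.26 on the log2 scale. The ratio of Ogdh to Dlst was 0.547, 0.499 and 0.564 with EET and 0.712, 0.721 and 0.757 in controls (−0.45). Both groups were apart in each of these pairs, with the EET libraries lower, as they also were with the trend removed (−0.50 and −0.18). The ratio of Suclg1 to Suclg2 was 1.67, 1.54 and 1.38 with EET and 1.03, 1.02 and 1.03 in controls (0.57), and that of Suclg1 to Sucla2 was 0.853, 0.877 and 0.804 with EET and 0.727, 0.729 and 0.737 in controls (0.21). With the trend removed these came to 0.03 and −0.06, and the groups overlapped. Each of these 4 pairs gave the smallest p that 3 against 3 libraries allow (exact two-sided permutation test, p = 0.1, adjusted p = 0.15 over 6 pairs). The ratios of Idh3a to Idh3b (mean 1.51 ± 0.128 with EET and 1.61 ± 0.0505 in controls; SD, n = 3 each; exact permutation p = 0.4) and of Mdh2 to its cytosolic isoenzyme Mdh1 (3.71 ± 0.134 with EET and 3.43 ± 0.173 in controls; exact permutation p = 0.2) overlapped between the groups as counted. These last 2 turned sign with the trend removed, from −0.09 and 0.12 as counted to 0.26 and −0.19, and the groups then did not overlap, EET lying above controls for Idh3a to Idh3b and below them for Mdh2 to Mdh1.

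**Figure D4:**
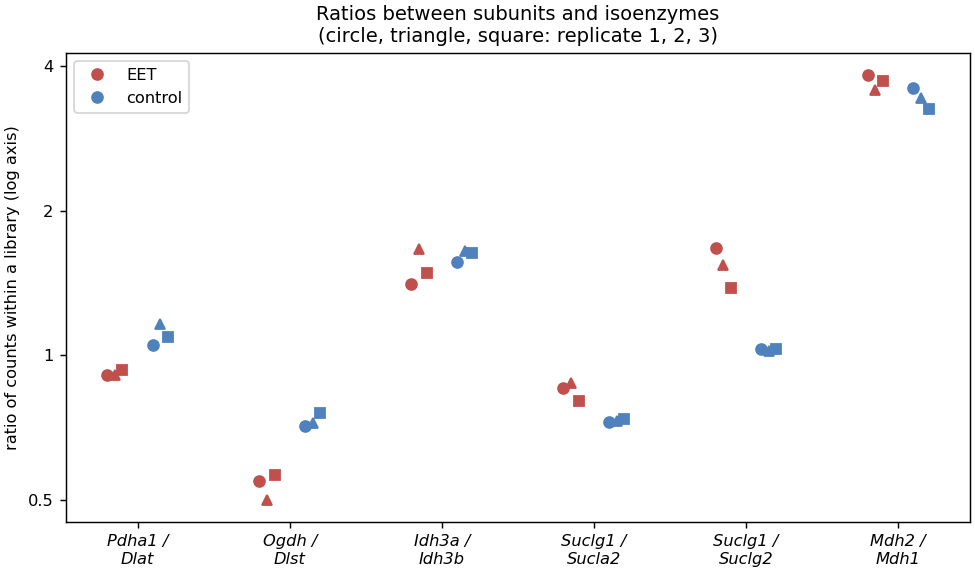
Ratio of counts within a library (vertical log axis) for 6 pairs of subunits or isoenzymes; points are libraries, EET left of control in each pair. The EET points lie below the control points for Pdha1 to Dlat and Ogdh to Dlst, and above them for Suclg1 to Sucla2 and Suclg1 to Suclg2.

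Levels of different genes were compared per kilobase of mRNA. In EET libraries Mdh2 was the highest, at 417 ± 28.7 CPM per kb, followed by Cs at 138 ± 6.24, Dlst at 114 ± 1.67, Idh3a at 87.8 ± 4.25, Suclg1 at 72.3 ± 5.25, Fh1 at 58.3 ± 4.77, Pdha1 at 52.5 ± 3.04, Ogdh at 40.9 ± 2.51 and Dlat at 40.4 ± 1.87 (SD, n = 3). In controls the order began in the same way, with Mdh2 at 297 ± 34.7 CPM per kb, Cs at 151 ± 1.12, Dlst at 111 ± 3.45 and Idh3a at 73.7 ± 0.853. It went on with Pdha1 at 61.5 ± 1.78, Ogdh at 54.4 ± 0.641, Suclg1 at 47.4 ± 1.97, Fh1 at 42.2 ± 2.66 and Dlat at 39.5 ± 1.18. Suclg1 and Fh1 thus ranked above Pdha1 and Ogdh with EET and below them in controls. Neighbours in the order overlapped between libraries only for Fh1 and Pdha1 and for Ogdh and Dlat with EET, and for no neighbours in controls. The length trend differs between libraries, so levels per kilobase carry it too.

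The other genes of the pathway were taken from 3 lists of 41 genes in all, of which 20 were called higher and 7 lower (median log2 fold change 0.21), or 11 and 9 with the trend removed (median −0.02). Of all genes tested, 24.6% were called higher and 23.3% lower as counted, and 15.2% and 17.1% with the trend removed. Among 13 partner subunits and remaining cycle enzymes 10 rose and 0 fell (edgeR; 0 also fell at an unadjusted p under 0.05, by DESeq2 and by limma-voom), at a median of 0.36; with the trend removed 4 were higher and 2 lower, at a median of 0.05. The smallest p-values in this list were those of 3 of the 4 subunit genes of succinate dehydrogenase, the enzyme shared by the cycle and the respiratory chain. Sdhd averaged 210 ± 14.2 CPM with EET and 127 ± 8.74 CPM in controls, Sdhb 136 ± 15.3 CPM with EET and 74 ± 7.11 CPM in controls, and Sdhc 161 ± 13 CPM with EET and 106 ± 3.71 CPM in controls (SD, n = 3 each). Sdha, the catalytic subunit, averaged 319 ± 4.65 CPM with EET and 334 ± 21.7 CPM in controls, with overlapping groups, and was not called (log2 fold change −0.07, 95% interval −0.21 to 0.07, adjusted p = 0.435). With the trend removed Sdha was at −0.11 and not called (adjusted p = 0.0926). Sdhc, with an mRNA of 3171 bp, rose by 0.61 as counted and 0.64 with the trend removed (adjusted p = 6.31e-07), whereas Sdhb went to 0.14 (adjusted p = 0.0317) and Sdhd to 0.05 (adjusted p = 0.393). The 3171 bp are those of the longest of 3 protein-coding transcripts of Sdhc (shortest 298 bp, median 815 bp). Its value after trend removal rests on that length, and a shorter one was not tested.

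Regulators of pyruvate dehydrogenase moved both ways: of 12 genes of its kinases, phosphatases, lipoylation enzymes and the pyruvate carrier, 6 rose and 3 fell (4 and 3 with the trend removed; medians 0.34 and 0.09). Over all genes tested, 24.6% were higher and 23.3% lower as counted, so the share that fell was near that of all genes. Pdpr, the regulatory subunit of pyruvate dehydrogenase phosphatase, fell the most, to 6.49 ± 2.06 CPM with EET, against 25.2 ± 6.99 CPM in controls (SD, n = 3 each; log2 fold change −1.96 ± 0.27, and −1.64 after trend removal). Exons of the noncoding gene 9430091E24Rik overlap Pdpr on the opposite strand over 169 bp, and no source used here gives the strand setting of the counting. Of the kinases that phosphorylate Pdha1's product, Pdk4 averaged 54.6 ± 3.35 CPM with EET and 67.8 ± 3.33 CPM in controls (−0.31, adjusted p = 0.00365; −0.25 with the trend removed, adjusted p = 0.00246). Pdk3 rose by 0.46 ± 0.10 (0.23 with the trend removed, adjusted p = 0.0581). Pdk1 fell by 0.37 (adjusted p = 0.0367), a call that was lost with the trend removed (−0.04) and without control 1, control 2, EET 1 or EET 2 (−0.33 to −0.29). Pdk2, at 3.69 ± 0.604 CPM with EET and 4.59 ± 0.227 CPM in controls, was not called as counted (−0.32, adjusted p = 0.169) and was called lower after trend removal (−0.55, adjusted p = 0.0279). Lias, the lipoate synthase that arms both core enzymes, rose by 0.45 ± 0.08 as counted and by 0.43 with the trend removed. Lipt2 and the pyruvate carrier gene Mpc2 rose by 0.84 ± 0.16 and 1.15 ± 0.14, or by 0.41 and 0.33 with the trend removed.

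Of 16 genes of enzymes that feed or drain the cycle and of isoenzymes outside it, 4 rose and 4 fell, at a median of 0.01 (3 and 4 with the trend removed, median −0.07). As counted, both shares were near those of all genes tested (24.6% higher and 23.3% lower). Without control 2, control 3, EET 1 or EET 2, or with library totals, 2 rose. Idh2, the NADP-dependent mitochondrial isocitrate dehydrogenase, averaged 142 ± 9.13 CPM with EET and 96 ± 3.25 CPM in controls (SD, n = 3 each; log2 fold change 0.56, and 0.15 after trend removal, adjusted p = 0.0214). Mdh1 rose by 0.38 ± 0.08 (0.14 with the trend removed, adjusted p = 0.0522). Acly, which splits exported citrate for lipid synthesis, fell to 177 ± 8.3 CPM with EET, against 244 ± 6.37 CPM in controls (−0.47, or −0.23 with the trend removed). Aco1, the cytosolic aconitase, fell by 0.36 (0.21 with the trend removed).

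**Figure D5:**
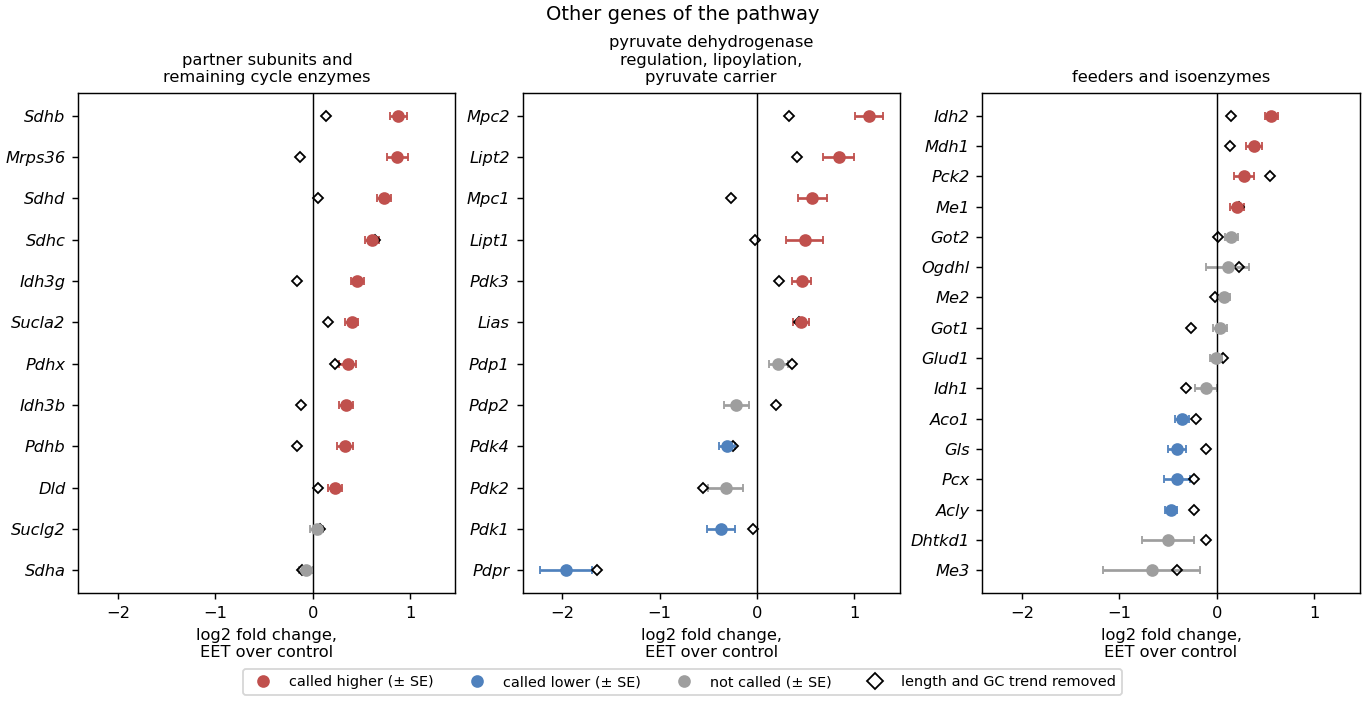
Log2 fold change of EET over control (horizontal axes, circles with SE) for the other genes of the pathway in 3 lists (1 gene of the first list is not drawn), coloured by whether edgeR called them, with the value after removal of the length and GC trend (diamonds). In the first list 10 of 13 genes were called higher as counted (24.6% of all genes tested were), and in the second Pdpr stands apart at −1.96.

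Genes outside these lists whose log2 CPM followed the mean of the 9 members most closely over the 6 libraries were Dhrs1 (Pearson r 0.9996), Prelid3b (0.99856), Pgp (0.99805), Sfr1 (0.9976) and Cenph (0.99758). The members' mean was 7.79, 7.79 and 7.77 log2 CPM in EET libraries 1, 2 and 3 and 7.70, 7.64 and 7.64 in control libraries 1, 2 and 3. It therefore separates the groups, and 3067 of 13403 protein-coding genes reached an r of 0.9 with it.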

How the data were processed

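The authors deposited 1 table of raw counts, whole numbers by gene symbol for each library. Per the submitters' processing notes, FastQC, cutadapt, DESeq2 and GRCm38 were used. No source used here gives the aligner, the counter, its strand setting or the annotation release. The libraries were poly(A)-selected, dUTP-marked and read from both ends, per the labels' protocols. Counts of 11 to 50 were even more often than odd (65.0 to 65.6% with EET, 61.3 to 62.1% in controls), so both mates of a fragment may have been counted.

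Counts of 3 EET and 3 control libraries, grouped by title, were fitted with edgeR 4.0.16 in R 4.3.3 (filterByExpr, TMM, robust glmQLFit, glmQLFTest, Benjamini-Hochberg over 16097 genes). That fit gave the standard errors and 95% intervals of log2 fold changes. Positions, mRNA length and GC content are from GENCODE M21 (longest protein-coding transcript; 53292 of 55494 symbols matched). For trend removal, deviations of each library from the mean were smoothed on log2 length and GC content (robust loess, span 0.3) and the smooth entered as an offset. The offset came from the same counts and was treated as known. Standard errors, intervals and p-values after trend removal therefore leave out its uncertainty. The method was tested on simulated counts with 200 changed genes, far fewer than were called in these data. It recovered 44.8% of 1.5-fold, 88.1% of 2-fold and 100% of 4-fold changes, with 10 false calls among 165. The simulated counts had the same dispersion for every gene and no length trend, so these shares need not hold for the measured libraries. Also run were DESeq2 1.42.0, limma-voom (limma 3.58.1), scaling by RLE or by library totals, a filter at 5 CPM in 3 libraries or none, no robust estimation, a block on the replicate number, counts divided by 2, trend removal with and without that block, leaving out each library, and leaving out control 1 and EET 3 together. Trend removal with the length of the longest transcript that has a RefSeq accession was added after the data were seen.

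Members, lists and tests were chosen with earlier results of these data known. Named genes are the 9 members, 9 partner subunits and isoenzymes and the kinases Pdk1 to Pdk4 by name, the 4 of smallest p-value from each list, and the 5 protein-coding genes closest to the members' mean; Ogdhl, Map3k15 and 9430091E24Rik were added as a paralogue or overlapping genes, and Sdha, Pax7, Myf5 and Myod1 after their values were seen. Of the partner genes, 1 counts in the lists and is not reported by name here.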

Additional observations from a re-analysis of the deposited data

How the results depend on the processing

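Ogdh was called lower and Fh1 higher in all 19 other fits; Suclg1 and Mdh2 were called higher in 16, Idh3a in 18, and Pdha1 was called lower in 15. Leaving out 1 library at a time gave log2 fold changes of −0.45 to −0.36 for Ogdh, 0.42 to 0.53 for Fh1, 0.56 to 0.67 for Suclg1, 0.44 to 0.59 for Mdh2, 0.21 to 0.28 for Idh3a, −0.27 to −0.19 for Pdha1, −0.16 to −0.10 for Cs, 0.01 to 0.05 for Dlst and 0.0027 to 0.07 for Dlat; it left 4 members higher and 1 to 3 lower. Over all genes it gave 3291 to 4121 higher and 3029 to 3934 lower, in the partner list 9 to 10 higher and 0 lower, and in the feeder list 2 to 5 higher.

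With the length and GC trend removed, alone, with the replicate block or with RefSeq lengths, 2451, 2553 and 2418 genes were higher, against 3967 as counted. In these fits, in that order, Suclg1 was at 0.10, 0.10 and 0.13 without a call, Mdh2 at −0.06, −0.05 and −0.04, Dlst at −0.04, −0.04 and −0.02, Dlat at 0.21, 0.21 and 0.23 and called, and Cs at −0.16, −0.16 and −0.14 and called. The partner list then held 4, 4 and 4 genes higher and 2, 3 and 1 lower, against 10 and 0. Pdhb was at −0.16, −0.16 and −0.14, Idh3b at −0.12, −0.12 and −0.09, Idh3g at −0.16, −0.16 and −0.13, Mrps36 at −0.13, −0.13 and −0.11, Myf5 at −0.03, −0.04 and −0.02, and Myod1 at −0.14, −0.15 and −0.13. RefSeq lengths left 2 members higher, Idh3a losing its call at 0.10. The log2 ratios of Idh3a to Idh3b, Suclg1 to Sucla2 and Mdh2 to Mdh1 turned to 0.26, −0.06 and −0.19. The cause was not tested.

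With library totals, which moved the median of all genes to −0.0638, Cs was called lower at −0.20, Dlst was at −0.04, Dlat and Suclg2 at −0.03, and 2 feeder genes were higher. Cs was also called without control 1 and EET 3 (−0.19), where Dlat was at −0.004; the cause was not tested. Same-numbered libraries did not deviate together (correlations −0.00347, −0.0501 and 0.00893 for numbers 1, 2 and 3, and not every library correlated best with its own number). The replicate block gave 4238 genes higher and 4083 lower, and called Cs lower at −0.13 (adjusted p = 0.0456). Ogdhl, at about 3 CPM, turned to −0.01 without control 3 and −0.02 without EET 2. Counts divided by 2, as if both mates of a fragment had been counted, gave 3966 higher and 3774 lower.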
